A study of Rattus norvegicus with 35 samples.

Results

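Enzymes that make nucleotides, the building blocks of RNA and DNA, were followed in neonatal rat heart cells after ionising radiation (IR), ultraviolet radiation (UV) or mechanical stress (MS). The members were chosen by name: Cad, Tyms, Tk1, Dut, Rrm2, Impdh2 and Hprt1, through every probe-set whose only gene symbol in the array annotation was one of these. The annotation held 4 of the 7 genes, Cad, Tyms, Dut and Hprt1, with 5 of the 8799 probe-sets of the RG-U34A array, since Hprt1 has 2. Tk1, Rrm2 and Impdh2 were not found there and were dropped. The array has 1 symbol for 7006 probe-sets, which stand for 4736 genes.

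RNA of 35 samples was hybridised to 1 array each. Cells from ventricles of neonatal rats were separated by pre-plating into cultures enriched for cardiac myocytes (CM) and cultures of fibroblasts. They were harvested 24 h after a single dose of X-rays (8.5 Gy) or of UVC (10 J/m2), or were stretched cyclically for 24 h on collagen-coated plates. Controls were sham-irradiated (IR), handled alike without irradiation (UV), or grown unstretched in the same type of plate (MS). All cells were in low-serum medium, with horse serum for CM-enriched cultures and foetal bovine serum for fibroblasts. The fibroblasts had been subcultured and were confluent. After IR or UV the CM-enriched cultures were elutriated, irradiated and control cells alike, and are called CM-enriched fractions. The MS cultures and all cultures of fibroblasts were not elutriated. Each of the 12 groups has 3 arrays, except that only 2 controls exist for UV in CM-enriched fractions. This comparison has 2 pairs, since the treated array numbered 3 lacks a partner and adds nothing. Arrays of 1 numbered experiment were treated as a pair. The study speaks of independent experiments, but nothing says which animals they came from, so p values measure only the spread between these samples, which may be technical.

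No population was pure. Marker intensities were summed after scaling of the arrays alone, without the further normalisation used for the members. For 16 myocyte markers the sum was 46140 to 92400 on CM-enriched control arrays and 4341 to 27740 on those of fibroblasts. None of these genes was at the lowest value on all arrays of a group. For 15 fibroblast markers the sum was 19480 to 47290 and 47920 to 66390. The CM-enriched controls differed by set: 19870 to 28120 for IR, 19480 to 23510 for UV and 41790 to 47290 for MS. The MS sum thus came close to the 47920 to 53820 of the fibroblast MS controls. The study likewise reports a smaller proportion of myocytes in the CM-enriched MS cultures than in the elutriated fractions. Rank correlations (Spearman) between arrays of a group were 0.925 to 0.98, and the number of arrays limits the precision of every value.

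Cells build pyrimidine and purine nucleotides anew from small molecules (de novo synthesis) or recover them from free bases and nucleosides (salvage). CAD, a protein with several catalytic domains, carries out the opening steps of pyrimidine synthesis. Thymidylate synthase (Tyms) converts dUMP to dTMP, the nucleotide found in DNA but not in RNA, and the dUTPase Dut splits dUTP, which supplies dUMP and keeps uracil out of DNA. HPRT (Hprt1) returns hypoxanthine and guanine to the purine nucleotides. Many of these genes are known for high expression in dividing cells, whereas HPRT is made in nearly all cells.

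In the rat assembly GRCr8, Cad lies on chromosome 6 (chr6:31012091-31035098), Tyms on chromosome 9 (chr9:120760057-120776149), Dut on chromosome 3 (chr3:132952258-132963433) and Hprt1 on the X chromosome (chrX:137655744-137687718). The probe-sets are AB007768_at for Cad, L12138_at for Tyms, U64030_at for Dut, and AF009656mRNA_s_at and M63983_s_at for Hprt1. The identity of the Cad probe-set carries a limit. The annotation pairs it with the gene number of the pyrimidine enzyme, but the rat gene table lists Cad also as an older name of Dffb, a DNase activated by caspases, and Dffb has no probe-set under its own symbol. Which of these genes the probes match was not tested, and "Cad" below means this probe-set.

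All 4 genes matched a window of RefSeq sequence (GRCr8) from 250 bases before to 50 after an annotated start, and Dut matched 2. The stretches below belong to the 3 genes called after UV and show the promoter words found before their starts. They run 5′ to 3′ on the gene's strand, and capitals mark a match to the E2F word TTGGCGC, its variant TTCCCGC, its variant TTCGCGC or its variant TTGCCGC, or to the GC box GGGCGG, on either strand. The Tyms and Cad stretches are 30 bases long, chr9:120776102-120776131 and chr6:31035065-31035094, both on the minus strand, because 66 and 62 of the 250 bases before these starts lie inside the annotated gene. The Hprt1 stretch is the whole 250 bases, chrX:137655494-137655743 on the plus strand.
Tyms: aaggtgcgggttTTGGCGCcgactacactg
Cad: tcCCGCCCcttacgtgcatggtcCCGCCCc
Hprt1: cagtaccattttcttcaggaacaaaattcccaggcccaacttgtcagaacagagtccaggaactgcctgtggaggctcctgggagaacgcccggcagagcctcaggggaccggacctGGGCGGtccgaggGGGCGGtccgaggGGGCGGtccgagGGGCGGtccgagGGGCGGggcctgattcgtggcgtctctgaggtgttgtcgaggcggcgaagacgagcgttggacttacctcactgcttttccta
Tyms held an E2F word that began 36 bases before the start. Cad held 2 GC boxes, on the other strand, and an E2F word beginning 36 bases after the start. Hprt1 held 5 GC boxes before the start and an E2F word 41 bases after it. Among all 33469 windows, 9.52% held an E2F word and 33.1% a GC box. The first Dut window held a GC box 29 bases before the start and the second the word TTTGAA, 1 of the 2 CHR words searched (with TTCGAA, 19.7% of all windows). CCAAT (37.5%) and the E-box CACGTG (6.42%) had no match in the windows of these 4 genes, and no matches overlapped. A match describes letters only.

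Levels are normalised linear intensities, and a change is a log2 difference, treated over control, with its standard error (SE) from a limma fit over all arrays. The p values are adjusted by the Benjamini-Hochberg procedure over 8740 probe-sets, and a call is an adjusted p under 0.05. A lack of overlap between such small groups is a description and no call. Its share over all probe-sets is not given here. Values below the floor of 6.88 were raised to it, which affected Cad on 6 arrays and the other members on none.

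**Figure D1:**
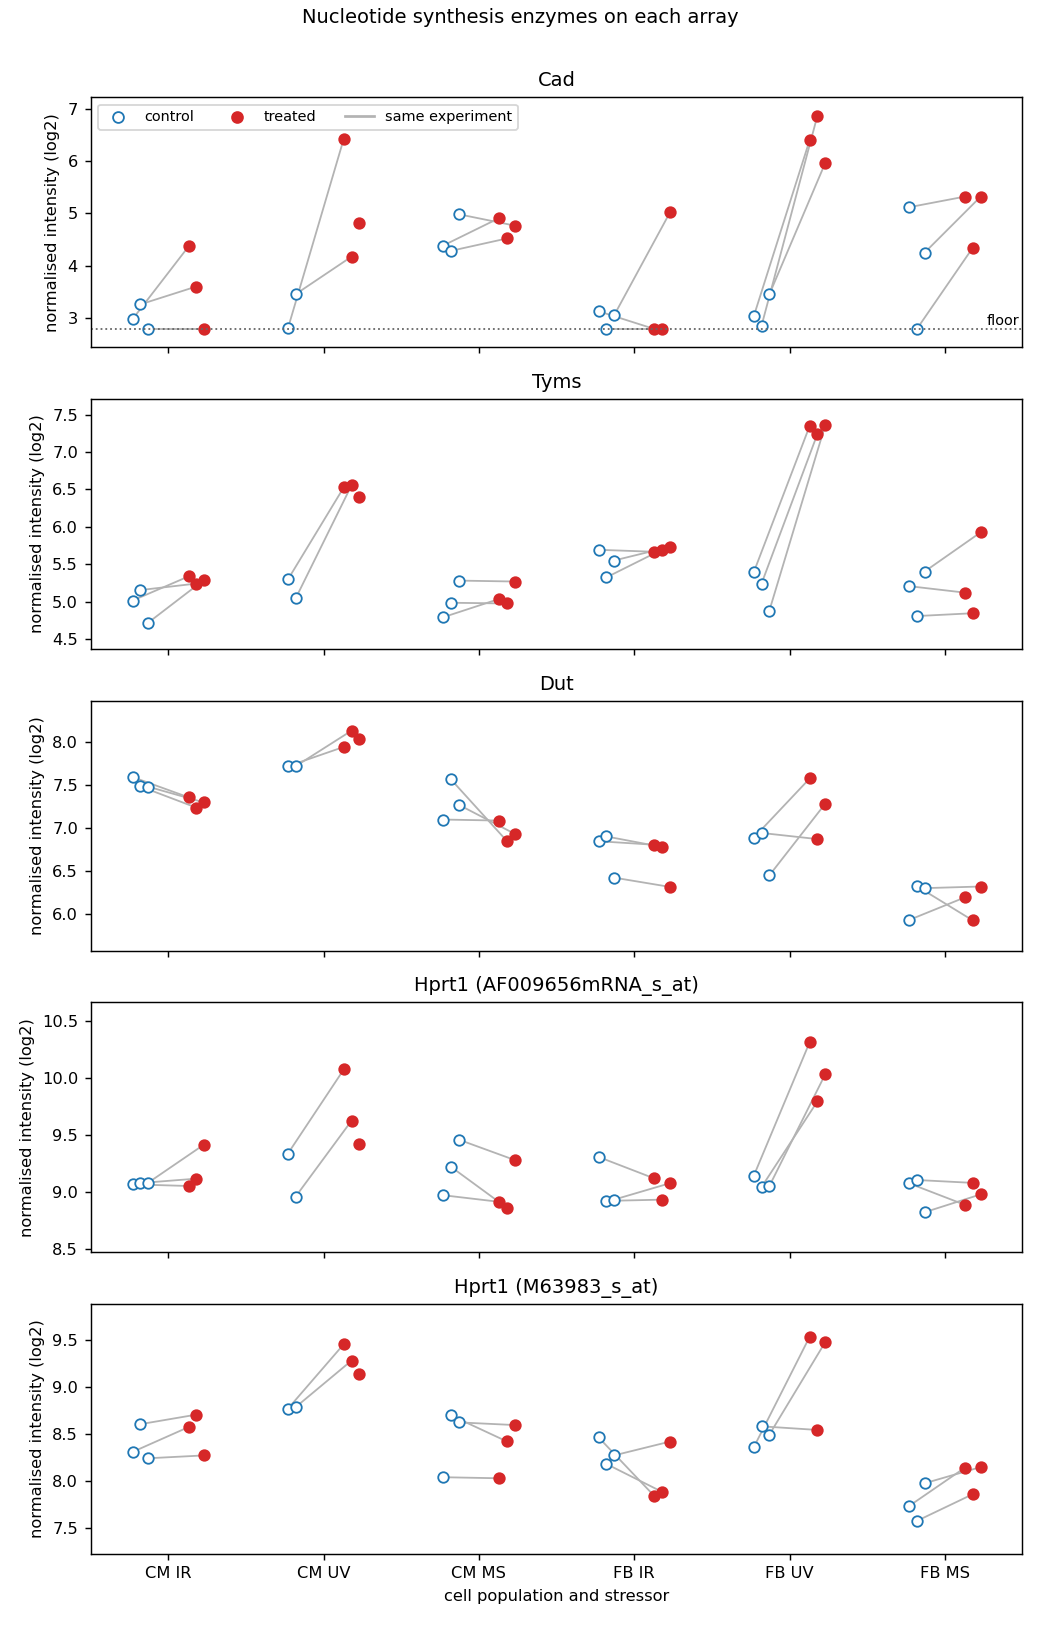
Normalised intensity (log2) of the 5 probe-sets on each of the 35 arrays, by cell population (CM, cardiac myocytes; FB, fibroblasts) and stressor. Open circles are controls, filled circles are treated samples, grey lines join arrays of 1 experiment, and the dotted line in the Cad panel is the floor at 2.78. Tyms and Cad lay above their controls on every UV-treated array, while IR and MS arrays lay close to their controls for Tyms.

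After UV, Tyms, Cad and Hprt1 AF009656mRNA_s_at were called higher in both cell populations. In CM-enriched fractions only the Tyms call held with every setting run, and that of Cad rested on a single experiment. In CM-enriched fractions 3 of the 5 probe-sets were called higher and none lower, beside 8.62% of all probe-sets tested called higher. In cultures of fibroblasts 4 of 5 were called higher and none lower, beside 11.7%. The median change of the 5 was 0.70 in CM-enriched fractions and 0.97 in fibroblasts. The median over all probe-sets was 0 in both, which the normalisation largely sets, so changes are relative to the other probe-sets of the arrays.

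Tyms, which makes the thymine nucleotide, had intensities of 39.3 and 33.0 in the control CM-enriched fractions and of 92.4, 94.2 and 84.3 after UV. In cultures of fibroblasts the controls were at 42.0, 37.8 and 29.4 and the UV-treated samples at 163.2, 151.6 and 164.4. All treated arrays lay far above all controls in both populations, and the treated fibroblast arrays lay closely together. The change was 1.37 (SE 0.19, adjusted p = 0.000332), a 2.59-fold rise, in CM-enriched fractions. It was 2.15 (SE 0.15, adjusted p = 8.29e-07), a 4.43-fold rise, in fibroblasts. Both calls were kept with every other setting run and with any experiment left out.

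Cad, named for the enzyme that opens pyrimidine synthesis, was near the floor in the IR and UV controls. In the MS controls it was at 19.45 to 31.66 in CM-enriched cultures and at 6.88 to 34.76 in fibroblasts. In CM-enriched fractions its controls were at 6.94 and 10.9, and the UV-treated arrays at 86.6, 18.02 and 28.3. In fibroblasts the controls were at 8.16, 7.19 and 10.9 and the treated arrays at 85.1, 117.8 and 62.6. The groups did not overlap in either population, but the treated CM arrays were far apart. Treated CM arrays 2 and 3 did not exceed the range of the MS controls of CM-enriched cultures. The change in fibroblasts was 3.31 (SE 0.55, adjusted p = 0.000716), a 9.94-fold rise on this floored scale. In CM-enriched fractions it was 2.18 (SE 0.67, adjusted p = 0.0446), with changes of 3.64 and 0.72 in the pairs. These pairs also differed in the scale of the deposited intensities, and the part of that difference was not tested. This CM call rested on experiment 1, without which the change was 0.72 (adjusted p = 0.755). With the floor at 24.5 in place of 6.88 it was 0.91 (adjusted p = 0.085), and without the experiment as a block 2.02 (adjusted p = 0.0507).

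Hprt1, the salvage enzyme for hypoxanthine and guanine, had smaller rises. Its probe-set AF009656mRNA_s_at was at 646.8 and 498.1 in control CM-enriched fractions and at 1079, 790.1 and 685.9 after UV. In fibroblasts it was at 565.3, 527.8 and 530.6 in controls and at 1273, 888.6 and 1047 after UV. The groups did not overlap in either population, although in CM-enriched fractions treated array 3 lay just above control 1. The change was 0.70 (SE 0.12, adjusted p = 0.00154) in CM-enriched fractions, where the call was lost without the block (0.56, adjusted p = 0.0507). It was 0.97 (SE 0.10, adjusted p = 1.21e-05) in fibroblasts, where every setting run kept the call.

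The other Hprt1 probe-set, M63983_s_at, was at 437.2 and 442.4 in control CM-enriched fractions and at 704.5, 623.9 and 562.9 after UV, without overlap. Its change there was 0.59 (SE 0.23) and was not called (adjusted p = 0.106). In fibroblasts the controls were at 328.9, 383.9 and 360.8 and the treated arrays at 743.9, 373.7 and 714.6. Treated array 2 thus lay within the controls, while the others lay far above them. The change of 0.71 (SE 0.19, adjusted p = 0.0157) was called, with a rise in 2 of 3 pairs. The call was lost without experiment 1 (0.47, adjusted p = 0.156) or experiment 3 (0.57, adjusted p = 0.125), and without experiment 2 the change was 1.08 (adjusted p = 0.000293). The probe-sets of Hprt1 thus gave the same direction in both populations but only AF009656mRNA_s_at was called in both.

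Dut, the dUTPase, had the smallest fitted changes after UV. Its intensity was 210.3 and 210.4 in control CM-enriched fractions and 245.8, 280.3 and 261.9 after UV, a change of 0.32 (SE 0.20) that was not called (adjusted p = 0.355) although the groups did not overlap. In fibroblasts the controls were at 118.2, 122.8 and 87.2 and the treated arrays at 190.6, 116.9 and 155.5. Treated array 2 lay among the controls here as well. The change was 0.48 (SE 0.17, adjusted p = 0.0555), with a rise in 2 of 3 pairs. It passed the threshold without experiment 2 (0.76, adjusted p = 0.00542), with the block as a random effect (adjusted p = 0.021) and with dim probe-sets left out (adjusted p = 0.0472).

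**Figure D2:**
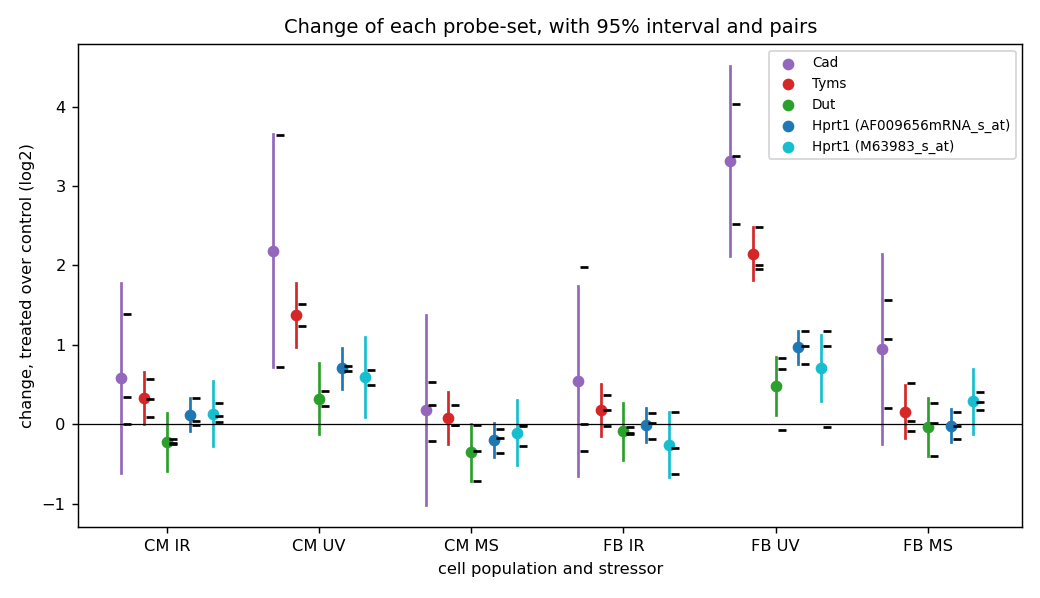
Change of each probe-set (log2, treated over control) in the 6 comparisons: circles are the fitted changes, vertical lines their 95% intervals, and black dashes the changes of single pairs (2 pairs for CM UV, 3 elsewhere). After UV the intervals of Tyms, Cad and both Hprt1 probe-sets lie above 0 in both populations, and that of Dut in fibroblasts only. The intervals of Cad are the widest of the 5.

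On the UV arrays on which these enzymes were higher, markers of both cell types were called lower. In fibroblast cultures the summed intensity of the 16 myocyte markers was 24810 to 27740 in controls and 8590 to 13380 after UV, with 13 called lower and none higher. That of the 15 fibroblast markers was 60400 to 66390 and 43550 to 49780, with 8 called lower and none higher. Over all probe-sets after UV, 11.2% were called lower and 11.7% higher in fibroblasts, and 8.16% and 8.62% in CM-enriched fractions. In CM-enriched fractions the myocyte sum was 81830 to 92400 in controls and 57770 to 65280 after UV (5 called lower), and the fibroblast sum 19480 to 23510 and 14460 to 16590 (7 called lower), with no marker of either list called higher. The sums of 5 smooth muscle, 6 endothelial and 9 leukocyte markers in fibroblasts were 7851 to 8245, 200.8 to 308.0 and 244.8 to 312.1 in controls, and 3166 to 4666, 176.2 to 183.4 and 337.8 to 394.7 after UV. In such bulk samples fewer cells of a type and less RNA per cell cannot be told apart, and the part of cell composition in the rises was not tested.

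After IR no member was called in either population. In CM-enriched fractions 0.286% of all probe-sets were called higher and 0.446% lower, and in fibroblasts 0.0343% and 0.0458%. None of the 5 member probe-sets had an unadjusted p under 0.05 in limma, compared with 993 of all 8740 in CM-enriched fractions and 599 in fibroblasts.

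Tyms in CM-enriched fractions was at 32.3, 35.6 and 26.3 in controls and at 40.4, 37.8 and 39.1 after IR. The groups did not overlap, and the change was 0.33 (95% interval -0.00 to 0.66, adjusted p = 0.441). Dut was at 192.7, 178.7 and 178.3 in controls and at 163.7, 150.6 and 157.0 after IR, lower in 3 of 3 pairs and without overlap, with a change of -0.22 (95% interval -0.58 to 0.14, adjusted p = 0.714). Treated CM arrays 1 and 3 came from another array lot than the rest, so that only experiment 2 lay within 1 lot. In that pair the change was 0.09 for Tyms and -0.25 for Dut. Cad changed by 0.58 (95% interval -0.62 to 1.78), and both Hprt1 probe-sets by 0.12 and 0.13.

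In fibroblasts after IR, Tyms was at 51.7, 40.01 and 46.8 in controls and at 50.8, 51.8 and 53.2 in treated samples. These groups overlapped, with a change of 0.18 (95% interval -0.15 to 0.51). Cad was at or near the floor on all arrays but treated array 3, at 32.4, and its change of 0.55 became -0.17 without experiment 3. Dut changed by -0.09 and the Hprt1 probe-sets by -0.01 and -0.26, all with an adjusted p of 0.905 or 1.

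After MS no probe-set of the array, members included, was called in either population. In limma 414 probe-sets had an unadjusted p under 0.05 in CM-enriched cultures and 468 in fibroblasts, with none of the 5 members among them. Dut in CM-enriched cultures was at 136.8, 189.1 and 154.1 in controls and at 135.7, 115.1 and 122.0 after MS. It was lower in 3 of 3 pairs, the groups did not overlap, and the change was -0.36 (95% interval -0.72 to 0.01, adjusted p = 1). Cad in fibroblasts was at 34.8, 6.88 and 19.0 in controls and at 40.05, 20.3 and 39.96 after MS, higher in 3 of 3 pairs though the groups overlapped, with a change of 0.95 (95% interval -0.25 to 2.14, adjusted p = 1). Tyms changed by 0.07 (95% interval -0.26 to 0.40) in CM-enriched cultures and by 0.16 (95% interval -0.17 to 0.49) in fibroblasts. Myocyte marker sums of the fibroblast cultures were uneven in these experiments, 4341 to 25940 in controls and 3896 to 30530 after MS.

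The responses to UV and IR were compared directly, each against its own controls. In fibroblasts 4 of the 5 probe-sets changed more after UV than after IR, beside 7.12% of all probe-sets, and none changed less (7.27% of all). The difference of the changes was 2.77 for Cad (adjusted p = 0.0316) and 1.97 for Tyms (adjusted p = 7.68e-05). For Hprt1 it was 0.98 (AF009656mRNA_s_at, adjusted p = 0.000395) and 0.97 (M63983_s_at, adjusted p = 0.0292), and for Dut 0.57 (95% interval 0.06 to 1.09, adjusted p = 0.144). Of these, Tyms and Hprt1 AF009656mRNA_s_at kept the call with any experiment left out. Cad lost it without experiment 1 (2.28, adjusted p = 0.216) or 2 (2.14, adjusted p = 0.243), and M63983_s_at without 1 (0.55, adjusted p = 0.298) or 3 (1.03, adjusted p = 0.0647). Dut gained it without experiment 2 (0.84, adjusted p = 0.0484).

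In CM-enriched fractions 2 of 5 changed more after UV than after IR, beside 4.46% of all probe-sets, and none less (4.55% of all). Tyms differed by 1.05 (adjusted p = 0.0178) and Hprt1 AF009656mRNA_s_at by 0.58 (adjusted p = 0.0337). Both lost the call when experiment 1 (1.19 and 0.48, adjusted p = 0.074 and 0.257) or experiment 2 (0.78 and 0.58, adjusted p = 0.202 and 0.165) was left out. With the array lot as a term Tyms kept it and Hprt1 did not (0.66, adjusted p = 0.128). Cad differed by 1.60 (95% interval -0.29 to 3.50, adjusted p = 0.322), Dut by 0.54 (95% interval -0.03 to 1.12) and M63983_s_at by 0.46 (95% interval -0.19 to 1.11), none of them called.

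The rises after UV were numerically smaller in CM-enriched fractions than in fibroblasts for all 5 probe-sets, but in no case was the difference between the populations called, beside 3.63% and 2.72% of all probe-sets whose change was called higher and lower in CM-enriched fractions. For Tyms the difference was -0.77 (95% interval -1.30 to -0.25, adjusted p = 0.0838), and it was called with scaling alone (-0.86, adjusted p = 0.0415). For Cad it was -1.13 (95% interval -3.03 to 0.76) and turned to 0.70 without experiment 2. For Dut it was -0.16 and for Hprt1 -0.27 and -0.12, each with an interval that spans 0. Only Tyms had an unadjusted p under 0.05 in limma. After IR (0.0343% of all in each direction) and MS (0%) no member was called in this comparison either.

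Without treatment, Dut was higher in CM-enriched cultures or fractions than in fibroblasts in all 3 sets of controls. In the IR controls it was at 192.7, 178.7 and 178.3 against 114.8, 119.4 and 85.6, and in the UV controls at 210.3 and 210.4 against 118.2, 122.8 and 87.2. In the MS controls it was at 136.8, 189.1 and 154.1 against 60.8, 79.9 and 78.7. No CM array fell within the fibroblast range of its set. The difference was 0.80 (SE 0.17, adjusted p = 0.00104), 0.96 (SE 0.19, adjusted p = 0.000555) and 1.13 (SE 0.17, adjusted p = 4.03e-05), and leaving out an experiment kept each call.

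The other members showed no such regular difference. In the IR controls 1 of 5 probe-sets was higher and 1 lower in CM-enriched fractions, beside 12.4% and 13.2% of all probe-sets. The lower was Tyms, by -0.56 (SE 0.20, adjusted p = 0.0446), a call lost without experiment 1 (-0.50, adjusted p = 0.197) or 3 (-0.42, adjusted p = 0.271). In the UV controls only Dut was called (11.2% of all were higher), and Tyms differed by -0.00 (95% interval -0.47 to 0.47). In the MS controls 2 were higher (10.5% of all), Dut and Hprt1 M63983_s_at, the latter by 0.69 (SE 0.22, adjusted p = 0.0221), a call lost without experiment 2 (0.48, adjusted p = 0.272) or 3 (0.72, adjusted p = 0.0753). Cad and AF009656mRNA_s_at were called in none. Cell population cannot be told apart here from subculture and serum, nor from elutriation in the IR and UV controls. In the IR controls it also coincided with the scale of the deposited intensities, high on all CM arrays and low on all fibroblast arrays. In the MS controls neither population was elutriated. The numbers of the experiments do not pair the populations.

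For the IR and UV controls a series of genes of S phase and DNA replication was also higher in the CM-enriched fractions, 9 of 18 measured in IR (none lower) and 6 in UV (1 lower), with 3 in MS. Genes of mitosis were higher in 11, 9 and 3 of 13, beside 12.4%, 11.2% and 10.5% of all probe-sets. The part of cycling cells in the Dut difference was not tested.

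Beyond the members, 27 genes of nucleotide metabolism were measured, of 74 listed. After UV, 3 of them were called higher and 2 lower in CM-enriched fractions, with a median change of 0.03, beside 8.62% and 8.16% of all probe-sets. In fibroblasts 9 were called higher and 3 lower, with a median of 0.06, beside 11.7% and 11.2%. The medians over all probe-sets were 0, which the normalisation largely sets. After IR and MS none was called in either population.

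**Figure D3:**
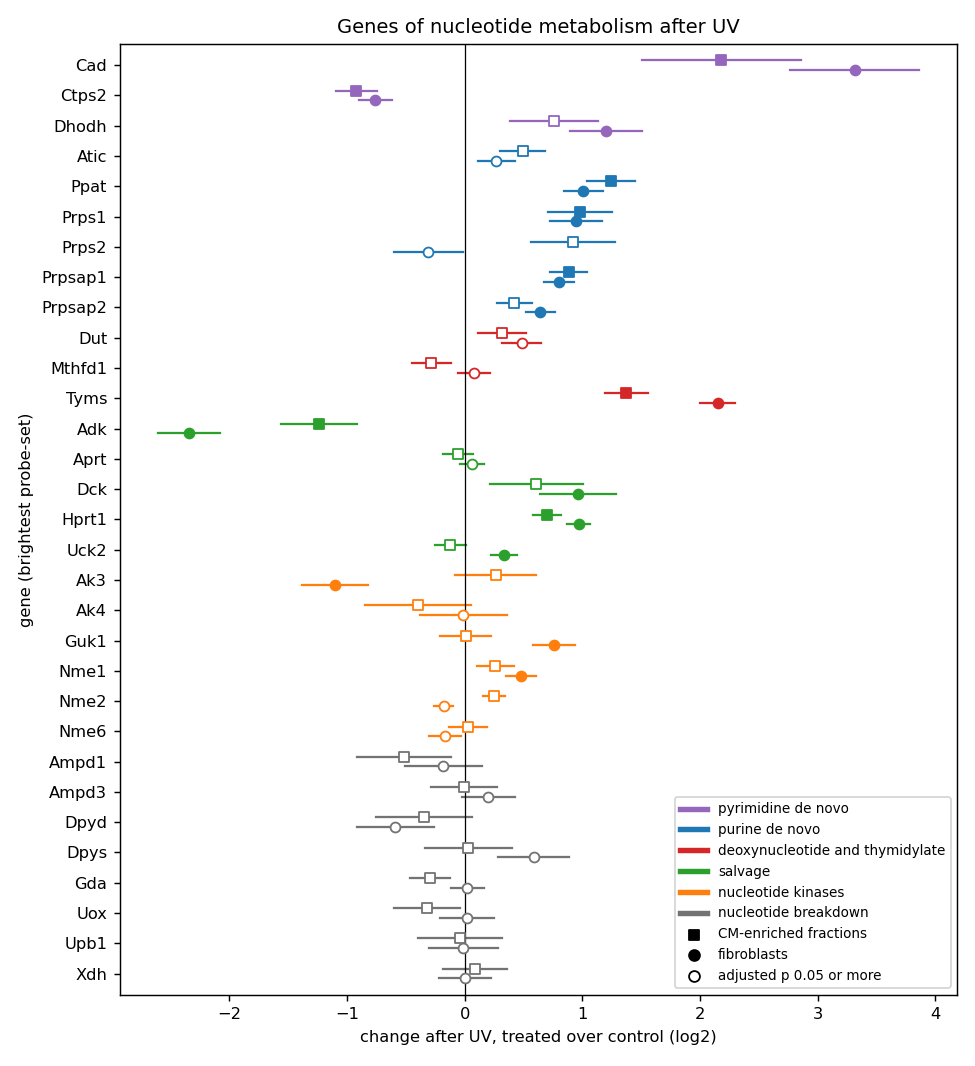
Change after UV (log2, treated over control, with 1 SE on each side) of the 31 measured genes of nucleotide metabolism, members included, by the brightest probe-set. Squares are CM-enriched fractions, circles are fibroblasts, colours mark the lists, and filled symbols passed the adjusted p of 0.05. Genes listed under purine de novo synthesis lie mostly to the right of 0, Adk and Ctps2 lie to the left in both populations, and all breakdown genes have open symbols.

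Among the 6 measured genes listed under purine de novo synthesis, 3 rose in CM-enriched fractions and 4 in fibroblasts, and none fell. Over all probe-sets 8.62% and 11.7% were called higher. The list includes Prps1, Prps2, Prpsap1 and Prpsap2, which concern activated ribose, so the count is not one of purine enzymes alone. Ppat, which commits ribose phosphate to purine synthesis, was at 40.7 and 48.0 in control CM-enriched fractions and at 74.0 to 127.2 after UV, a change of 1.24 (SE 0.20, adjusted p = 0.00126). In fibroblasts it was at 30.1 to 35.7 in controls and 58.0 to 76.0 after UV, a change of 1.01 (SE 0.17, adjusted p = 0.000667). The groups did not overlap in either population. Prps1, a synthetase of the activated ribose used by purine and pyrimidine synthesis, changed by 0.98 (adjusted p = 0.0267) and 0.94 (adjusted p = 0.0074). Its partner Prpsap1 changed by 0.88 (adjusted p = 0.00209) and 0.80 (adjusted p = 0.000506), and all 3 of its probe-sets were called in both populations. Prpsap2 rose by 0.64 (adjusted p = 0.00204) in fibroblasts, and in CM-enriched fractions its change of 0.42 was not called (adjusted p = 0.0788). Prps2 and Atic were not called, and the 2 probe-sets of Atic had opposite signs.

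Of the pyrimidine genes besides Cad, Dhodh and Ctps2 were measured. Dhodh, the mitochondrial enzyme that makes orotate, was at 6.88 to 18.1 in control fibroblasts and 20.8 to 32.5 after UV, a change of 1.20 (SE 0.31, adjusted p = 0.0123). In CM-enriched fractions its change of 0.76 was not called (adjusted p = 0.211). Ctps2, a CTP synthase, fell by 0.92 (adjusted p = 0.00332) in CM-enriched fractions and by 0.76 (adjusted p = 0.00176) in fibroblasts. Thus the Cad probe-set rose while Ctps2, which acts at the end of pyrimidine synthesis, fell in both populations.

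In salvage, Adk, which returns adenosine to AMP, moved against Hprt1. Its intensity was 209.2 and 270.2 in control CM-enriched fractions and 72.7 to 117.2 after UV, and 108.0 to 162.9 in control fibroblasts and 18.8 to 32.3 after UV. The groups were well apart in both populations. The change was -1.24 (SE 0.33, adjusted p = 0.0211) and -2.34 (SE 0.27, adjusted p = 3.44e-05). In fibroblasts Dck and Uck2, kinases of deoxycytidine and of uridine and cytidine, were called higher by 0.96 (adjusted p = 0.0493) and 0.33 (adjusted p = 0.0436), Dck with 2 of 3 controls at the floor. Aprt, the adenine counterpart of HPRT, changed by 0.06 in fibroblasts and -0.06 in CM-enriched fractions and was not called.

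Of 6 nucleotide kinases, Guk1 (0.76, adjusted p = 0.00715) and Nme1 (0.48, adjusted p = 0.0152) rose and Ak3 (-1.10, adjusted p = 0.0125) fell in fibroblasts. Over all probe-sets there, 11.7% were called higher and 11.2% lower. The brightest probe-set of Nme6 was not called (-0.17, adjusted p = 0.482), but its other probe-set was lower in fibroblasts (-1.18, adjusted p = 0.0234). No kinase was called in CM-enriched fractions. None of the 8 breakdown genes, Xdh and Dpyd among them, was called in either population. The 5 calls in CM-enriched fractions, outside the members, were each lost when 1 of the 2 pairs was left out (adjusted p of 0.0537 to 0.371). In fibroblasts Adk, Ppat, Prpsap1, Prpsap2 and Ctps2 kept theirs with any experiment left out, and the other 7 lost it in at least 1 case (adjusted p of 0.0501 to 0.302).

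Genes of S phase were set beside the members because several members act in DNA synthesis. After IR, 4 of 18 fell and none rose in CM-enriched fractions (median -0.52), where 0.446% of all probe-sets were called lower: Top2a (-1.85, adjusted p = 0.00329), Mcm6 (-1.39, adjusted p = 0.00176), Mcm5 and Mcm7. In fibroblasts after IR only Top2a was called (-1.65, adjusted p = 0.0386, lost without experiment 1 or 2 at 0.26 and 0.25). None of the 4 S phase calls in CM-enriched fractions after IR passed with the array lot as a term (adjusted p of 0.0575 to 0.561). Mcm5 and Mcm7 lost theirs with any experiment left out. Mitosis genes fell in 10 of 13 in CM-enriched fractions and 2 in fibroblasts, and p53 targets rose in 5 and 3 of 9, beside 0.446% and 0.0458% of all probe-sets called lower and 0.286% and 0.0343% called higher. For these 2 lists the counts with the array lot as a term are not given here.

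After UV the S phase list was called higher for 8 and lower for 2 of 18 genes in fibroblasts (median 0.71), beside 11.7% and 11.2% of all probe-sets. The helicase subunit Mcm6 rose by 1.23 (adjusted p = 0.000168), the primase subunit Prim1 by 1.22 (adjusted p = 0.00106), Mcm7 by 1.02 (adjusted p = 0.000742) and the flap endonuclease Fen1 by 0.94 (adjusted p = 0.0035). In CM-enriched fractions 2 were higher, Fen1 (1.0, adjusted p = 0.0135) and Prim1 (0.96, adjusted p = 0.0252), and Prim2 was lower (-1.64), beside 8.62% and 8.16% of all. Each of these CM calls was lost with a pair left out (adjusted p of 0.0766 to 0.4). Mitosis genes were called higher in 1 of 13 in each population and p53 targets in 5 of 9, against the same shares of all probe-sets.

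**Figure D4:**
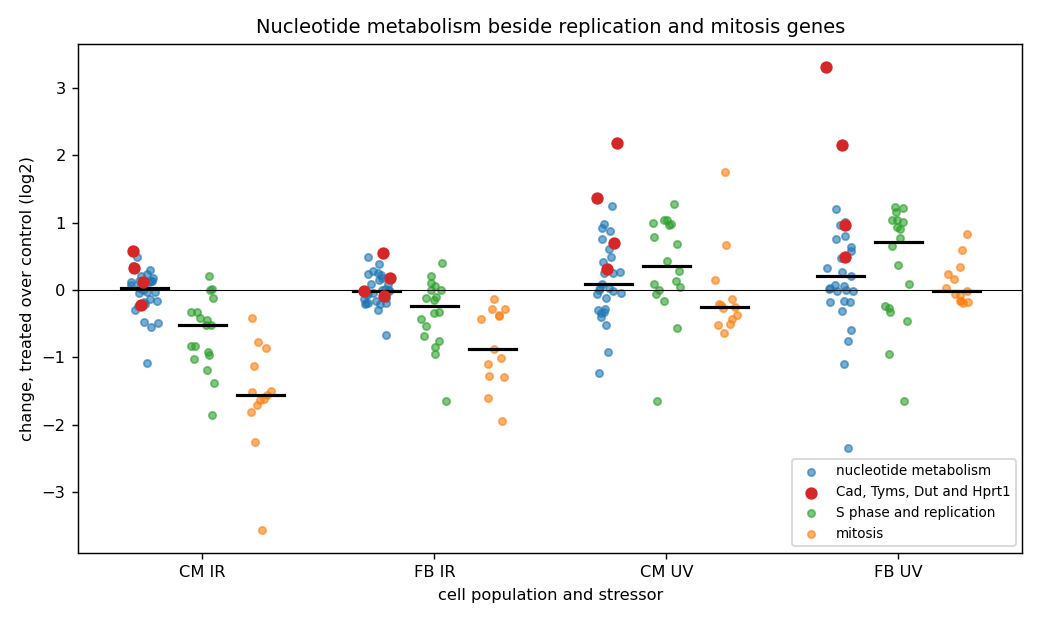
Change (log2, treated over control) of the measured genes of nucleotide metabolism (members in red, included in the median), of S phase and replication, and of mitosis, after IR and UV. Each point is a gene by its brightest probe-set, scattered sideways for legibility, and bars are list medians. After IR the bars of S phase and mitosis lie below 0 (-0.52 and -1.56 in CM-enriched fractions), while the members lie between -0.22 and 0.58, and after UV Cad and Tyms lie at or near the top.

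Across the 17 pairs of all comparisons, the change of Tyms followed that of Hprt1 AF009656mRNA_s_at closely (Pearson r = 0.95) and that of Cad less so (0.74). Among the members the weakest relation was between Cad and Dut (0.46). Of 5775 probe-sets of other genes compared, the changes most like those of Tyms were in Psme2 (0.96), Psmc1 (0.95) and Wrap53 (0.94), and for Hprt1 in Atf3 (0.94), Psma1 (0.94) and Fosl1 (0.93). For Cad they were in Akr7a2 (0.90), Psmc5 (0.87) and Icam1 (0.84), and for Dut in Prdx2 (0.87), Tbk1 (0.87) and Psma5 (0.86). These are descriptions over pairs that share stressors and arrays, and the 5 UV pairs hold the largest changes of Tyms and Hprt1 AF009656mRNA_s_at.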

How the data were processed

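RNA of 35 samples was measured on RG-U34A arrays, and groups were taken from the sample labels. The deposited table of the authors holds linear intensities of 8799 probe-sets, and the software that made them is not given in the sources used here. The study's own model was fitted to probe signals after gcrma and VSN, and these steps are not part of the deposited intensities. The trimmed mean (2% at each end) was 200.3 to 200.4 on 26 arrays and 1001.5 to 1001.7 on 9. Those 9 were all of CM-enriched fractions: every IR array, UV control 2 and UV-treated arrays 2 and 3. The CM UV arrays of experiment 1 were among the 26, as were all fibroblast and MS arrays. Scaling removes this difference in mean, but other differences between these sets of arrays were not tested.

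The 75th percentile was made equal on all arrays, and values under the 20th percentile of all scaled values were set to it (6.88, the floor). Then log2 was taken of these deposited intensities and the arrays were quantile normalized. The floor held 14.5% to 24.7% of the values of an array. After 59 control probe-sets were left out, 8740 were fitted with limma 3.58.1 (R 4.3.3, eBayes with trend, two-sided), with the numbered experiment as a block (residual degrees of freedom 11, prior 1.05 in the median). Control levels of the populations were compared on group means. The numbers come from the sample titles. Deviations from group means correlated within 17 pairs at 0.06 to 0.80, over 0.1 in 15.

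Symbols came from the array annotation, 6985 of them updated through a rat gene table by gene number. Probe-sets with several symbols (308) or none (1426) gave no member. Genes were named by rule: all members, up to 6 called genes of each pathway list in a comparison, up to 4 called S phase genes, and the 3 probe-sets most like each member. Genes with several probe-sets were taken by the brightest, except members. The members and lists were chosen with earlier results of these data known. The pipeline was tested on simulated data.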

Additional observations from a re-analysis of the deposited data

Results flagged for a closer look

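A test of the difference itself separated the response to UV from the response to IR for 3 of the 4 genes in fibroblasts. In CM-enriched fractions it did so for Tyms and 1 of the Hprt1 probe-sets. In cultures of fibroblasts the UV change exceeded the IR change by 2.77 for Cad, 1.97 for Tyms, 0.98 for Hprt1 AF009656mRNA_s_at and 0.97 for Hprt1 M63983_s_at (log2). In CM-enriched fractions it did so by 1.05 for Tyms and 0.58 for Hprt1 AF009656mRNA_s_at. Over all probe-sets, 7.12% in fibroblasts and 4.46% in CM-enriched fractions were called as changing more after UV. Only Tyms and AF009656mRNA_s_at in fibroblasts kept the call with any experiment left out. Each stressor had its own controls, and the experiments with UV and IR were separate, so that stressor and experiment cannot be told apart. No group had enough arrays for a check on single outlying arrays.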

How the results depend on the processing

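The calls of Tyms after UV in both populations, and of Cad and Hprt1 AF009656mRNA_s_at after UV in fibroblasts, passed with every alternative run for them (scaling without quantile normalization, floor at the 40th percentile, pseudocount, dim probe-sets left out, no or random replicate block, no variance trend, and an experiment left out). Array lot and scan were terms only where the CM IR arrays entered. With no replicate block the member probe-sets called higher after UV in CM-enriched fractions numbered 1 in place of 3, while fibroblasts stayed within 1.5 times. Those changing more after UV than IR in CM-enriched fractions numbered 0 with no replicate block, and 1 with a random replicate block, the array lot as a term, or scaling alone, in place of 2. Without the block Tyms differed there by 0.998 (adjusted p = 0.0819). Scaling alone gave 1 lower UV change in CM-enriched fractions than in fibroblasts, in place of 0. The member lower in the CM-enriched IR controls was lost (0 in place of 1) with scaling alone, the pseudocount or dim probe-sets left out. Leaving out an experiment gave 0 to 2 members for UV over IR in CM-enriched fractions, 2 to 4 in fibroblasts, 0 to 1 lower in the IR controls and 1 to 2 higher in the MS controls. Over all probe-sets, no block reduced the calls after UV from 753 higher and 713 lower to 465 and 348 in CM-enriched fractions, and from 1024 and 978 to 614 and 586 in fibroblasts. It reduced those for UV over IR from 390 and 398 to 138 and 101, and from 622 and 635 to 231 and 273, and those for the population difference after UV from 317 and 238 to 52 and 26. The causes were not tested, beyond the fewer samples of a fit with an experiment left out.

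Signs turned for values that were not called, most of them near 0 but Cad also from -1.13 (population difference after UV), 0.55 (fibroblasts, IR) and 0.50 (MS controls). With scaling alone Tyms was -0.027 after MS in CM-enriched cultures, Hprt1 AF009656mRNA_s_at was 0.021 after MS in fibroblasts and -0.017 between IR controls, and Tyms was 0.026 and 0.27 between UV and MS controls. The higher floor put Cad at 0 after IR in CM-enriched fractions and between UV controls, and at -0.043 between MS controls, and the pseudocount put it at -0.045 and -0.056 between IR and UV controls. With an experiment left out, Tyms ranged from -0.011 to 0.12 (CM, MS) and -0.024 to 0.28 (fibroblasts, MS), Dut from -0.19 to 0.14 (fibroblasts, MS), Cad from -0.17 to 0.99 (fibroblasts, IR), and AF009656mRNA_s_at from -0.089 to 0.077 (IR) and -0.11 to 0.066 (MS) in fibroblasts. The difference between populations after UV ranged from -2.57 to 0.70 for Cad, -0.54 to 0.032 for Dut and -0.39 to 0.024 for M63983_s_at. Between control populations the range was -0.20 to 0.16 (IR) and -0.45 to 0.31 (UV) for Cad, -0.15 to 0.16 (UV) and -0.27 to 0.028 (MS) for Tyms, -0.046 to 0.15 (IR) and -0.088 to 0.24 (UV) for AF009656mRNA_s_at, and -0.093 to 0.20 (IR) for M63983_s_at.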
